A study of Mus musculus with 13 samples.

Results

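The 10 genes described here encode subunits of oligosaccharyltransferase, the enzyme complex of the endoplasmic reticulum membrane that attaches N-linked glycans to proteins. They are Tmem258, Ost4, Ostc, Dad1, Krtcap2, Rpn1, Rpn2, Ddost, Stt3a and Stt3b, 10 of the 22656 genes in the deposited table, and all 10 were found by symbol. Tmem258 was chosen because its values differed between the host genotypes in these same libraries. The other 9 were listed because they belong to its complex. The difference of Tmem258 is therefore given as a description without a test, and tests are given for the other genes only.

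Expression was measured in B16F10-TR-shApoe cells, a mouse melanoma line that, by its name, carries a short hairpin RNA against Apoe. The cells had been injected into the tail vein of knock-in mice whose Apoe locus is of the APOE2 or the APOE3 type (human alleles), and lungs were collected on day 15. There were 8 libraries from APOE2 hosts and 5 from APOE3 hosts. All of them held the same tumour line with the same hairpin, so the host allele is the compared factor, and untreated cells or cells without the hairpin were not part of the comparison. Tumour cells were sorted as living, GFP-positive and CD45-negative cells. Strain, age and sex of the hosts are not given in the sources used here. The QuantSeq forward kit used for the libraries reads each transcript from its polyadenylated end, so a count follows the number of transcripts and not their length. No level is compared between genes below.

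Oligosaccharyltransferase transfers a preassembled sugar tree from the lipid dolichol to asparagine residues of proteins that enter the endoplasmic reticulum. Its catalytic subunit is either STT3A, which works beside the protein-conducting channel while the chain is being made, or STT3B, which acts mostly on sites that were missed. RPN1, RPN2, DDOST, DAD1, OST4 and TMEM258 are shared by both forms, OSTC and KRTCAP2 (also known as DC2 and KCP2) join the STT3A form to the channel, and MAGT1 or TUSC3 are the oxidoreductase subunits of the STT3B form.

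The reads recovered for the genes of the deposited table numbered 7080308 to 13039989 per library. Their means were 9205500 ± 1743140 (SD, n = 8 APOE2 libraries) and 7833560 ± 619037 (SD, n = 5 APOE3 libraries). Read totals below are these recovered reads. All 7 melanocyte marker genes had reads in every library, and they summed to 35234 to 51140 of each 1000000 normalised counts in APOE2 and to 26018 to 37682 in APOE3. RNA of other lung cells was also present. The 15 lung epithelium markers summed to 96.1 to 499 per 1000000 in APOE2 and 442 to 2599 in APOE3, with 0 markers at 0 in all libraries and 4 at 0 in some. The 21 leukocyte markers summed to 59.6 to 305 and 269 to 1498, with 13 at 0 in some library, a list that holds Lyz2, which alveolar type 2 cells also express. The 14 endothelial markers summed to 88.3 to 137 and 132 to 272, the 13 fibroblast and smooth muscle markers to 18.2 to 58.3 and 38.4 to 238, and the 5 erythroid markers found to 4.80 to 22.0 and 2.84 to 26.8. In such bulk samples, fewer cells of a type and less RNA per cell cannot be told apart.

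Tmem258 (ENSMUSG00000036372, chromosome 19, 10204014 to 10207824 on GRCm38, plus strand) encodes a small membrane subunit of the complex. In APOE2 hosts its normalised counts were lowest at 3998, had a median of 4358 and were highest at 5502. In APOE3 hosts they were 3014, 2790, 2794, 3252 and 2821 in replicates 1 to 5. All 8 APOE2 libraries thus lay above all 5 APOE3 libraries, with a gap between 3252 and 3998. The means were 4600 ± 541 (SD, n = 8) and 2934 ± 201 (SD, n = 5), a ratio of 1.57 and a log2 difference of 0.64 ± 0.10 (SE). Among the 12403 genes tested, 0.476% had every APOE2 library above every APOE3 library. Because that pattern is what Tmem258 was chosen for, nothing is read from its place among them.

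**Figure D1:**
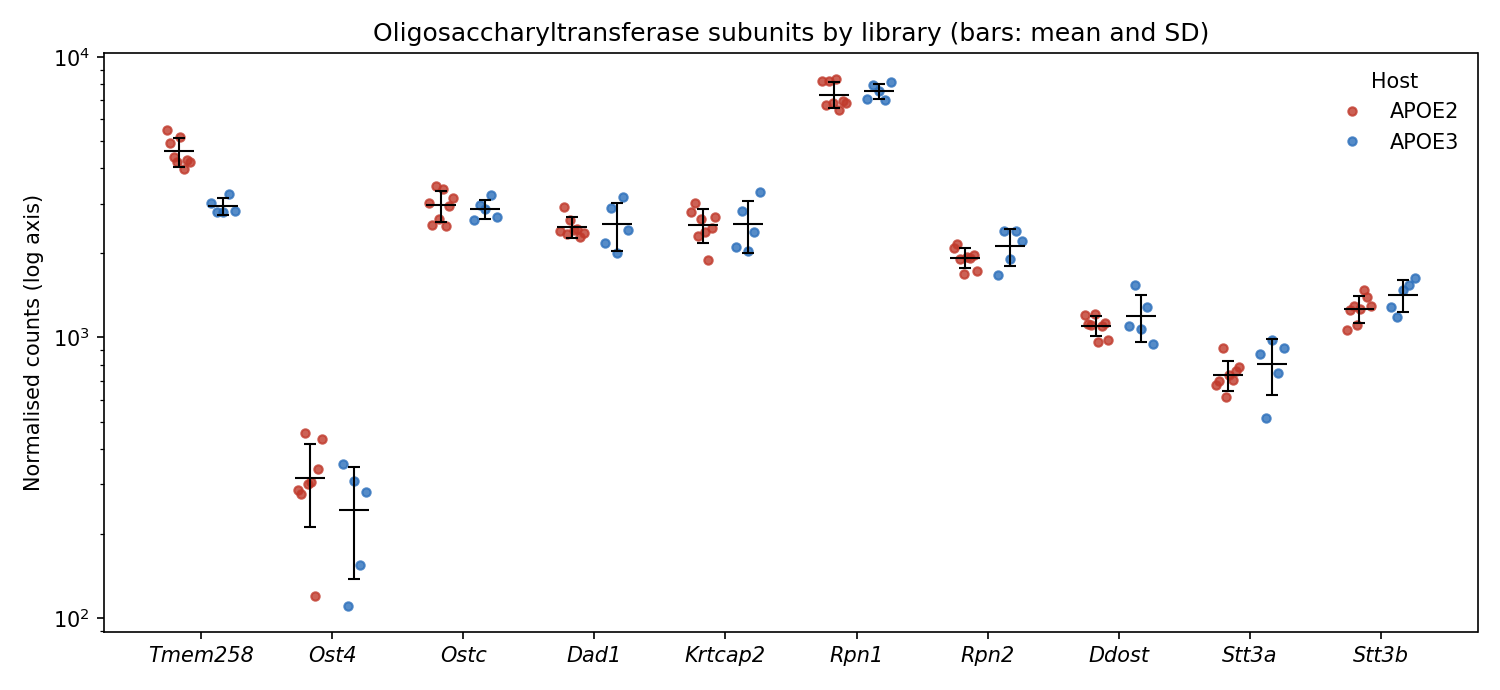
Normalised counts (log axis) of the 10 subunits in each library, with APOE2 hosts in red (n = 8) and APOE3 hosts in blue (n = 5), and black bars for the mean and SD. The groups separate for Tmem258, between 3252 and 3998, and overlap for the other 9 subunits.

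The read total was also higher in several APOE2 libraries. Tmem258 was highest in APOE2 replicate 1, the deepest library of the series. In the 4 APOE2 libraries whose read totals lay inside the APOE3 range, Tmem258 had 3998 to 5194 normalised counts. That these lie above the APOE3 libraries follows from how Tmem258 was chosen. Within genotypes, its log2 values had r = 0.60 and rho = 0.34 with the read total over the 13 libraries (permutation p = 0.0529 and 0.316, adjusted over the 10 subunits 0.529 and 0.752). This r was the highest of the 10 subunits, the next being 0.38 for Ostc, and it was −0.049 without APOE2 replicates 1 and 6, so it rested on those libraries. The part of depth in the genotype difference was not tested. With 1 library left out at a time, the log2 difference of Tmem258 lay between 0.60 and 0.68. That it stayed above 0 also follows from how Tmem258 was chosen. With the mean of the lung epithelium markers in the model the log2 difference was 0.68. Those markers were themselves lower in APOE2 hosts (96.1 to 499 against 442 to 2599 per 1000000). That fit therefore cannot fully separate host from lung cell RNA, and the part of lung cell RNA was not tested.

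**Figure D2:**
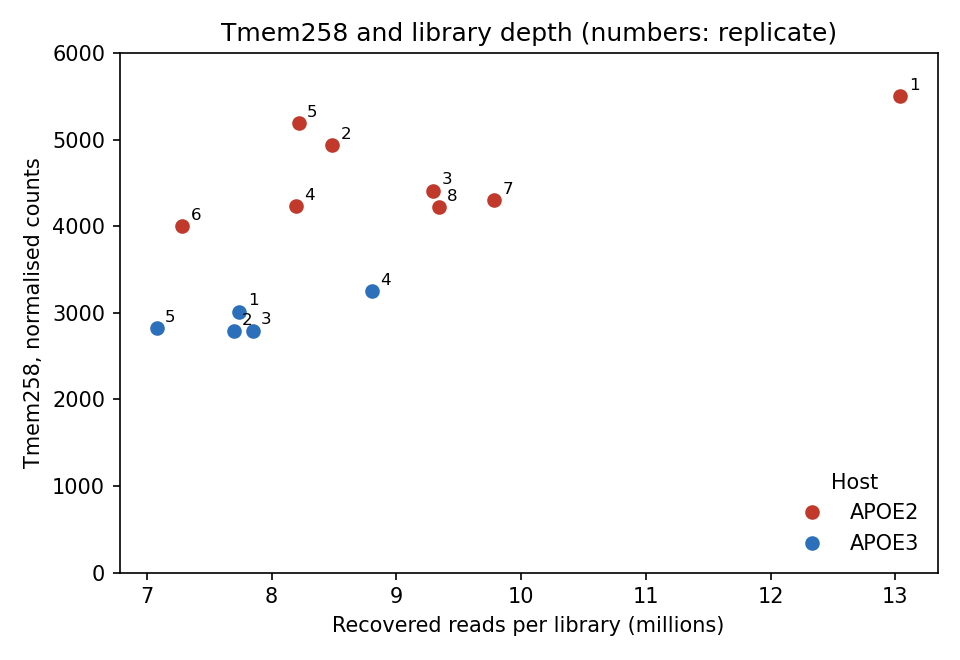
Tmem258 in normalised counts against recovered reads per library, with replicate numbers beside the points. Replicate 1 of APOE2 (red) has both the most reads, 13039989, and the highest value, and the separation from APOE3 libraries (blue) is the pattern Tmem258 was chosen for.

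None of the other 9 subunits passed the test between host genotypes. With limma, 0 of the 9 fell under 0.05 after Benjamini-Hochberg adjustment and 0 before it, and the same counts of 0 came from edgeR and DESeq2 on recovered reads. Of all 12403 genes, 0.79% passed after adjustment by limma, 1.11% by edgeR and 2.51% by DESeq2, and 14.2% were under 0.05 before adjustment by limma. The log2 differences of the 9 ran from −0.16 to 0.42 with a median of −0.045, with 3 above 0 and 6 below, against a median of 0.00037 over all genes tested. Adjusted p-values by limma lay between 0.524 and 0.986. For each of the 9 the groups overlapped, as they did for all but 0.984% of the genes tested.

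**Figure D3:**
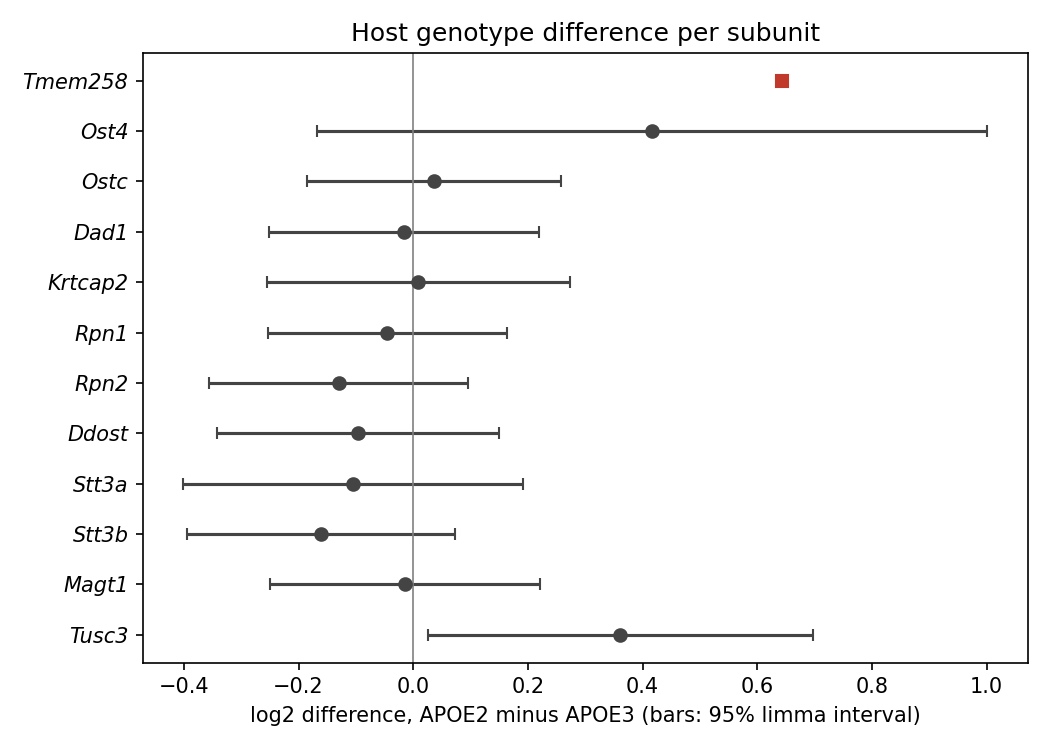
Log2 difference of APOE2 minus APOE3 for the 10 subunits and for Magt1 and Tusc3, with 95% limma intervals as bars. Tmem258 (red square) is shown without an interval because it was chosen for this difference, and the intervals of the other 9 subunits include 0.

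The catalytic subunits had lower means in APOE2 hosts, and neither passed the test. Stt3a (ENSMUSG00000032116) had 611 to 916 normalised counts with a median of 719 in APOE2, and 872, 514, 979, 749 and 916 in APOE3 replicates 1 to 5. Its log2 difference was −0.11 with a 95% interval of −0.40 to 0.19 (limma adjusted p = 0.787). Stt3b (ENSMUSG00000032437) had 1062 to 1479 with a median of 1274 in APOE2, and 1281, 1180, 1473, 1536 and 1624 in APOE3. Its log2 difference was −0.16 with an interval of −0.40 to 0.073 (limma adjusted p = 0.544). These intervals leave room for a decrease of either subunit to 0.76 times the APOE3 level, and for an increase of Stt3a to 1.14 times and of Stt3b to 1.05 times.

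The balance of the catalytic subunits was taken as the share of Stt3a in the sum of Stt3a and Stt3b counts. It was 36.8% ± 2.76 (SD, n = 8) in APOE2, ranging from 32.2% to 41.5%, and 35.9% ± 4.42 (SD, n = 5) in APOE3, ranging from 30.4% to 40.5%. The difference of 0.836 percentage points was smaller than the spread within either group, and it was −0.56 without APOE3 replicate 2, the library with the lowest share.

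The large shared subunits were close in level between the hosts. Rpn1 (ENSMUSG00000030062), which encodes ribophorin I, had 6470 to 8314 normalised counts with a median of 6894 in APOE2, and 7067, 7908, 7526, 7041 and 8118 in APOE3. Its log2 difference of −0.045 had an interval of −0.25 to 0.16. Rpn2 (ENSMUSG00000027642), ribophorin II, had 1686 to 2158 with a median of 1923 in APOE2 and 1671 to 2399 with a median of 2199 in APOE3. Its log2 difference was −0.13 with an interval of −0.36 to 0.095. Ddost (ENSMUSG00000028757), which encodes the subunit known as OST48, had 964 to 1216 with a median of 1108 and 949 to 1540 with a median of 1102, and a log2 difference of −0.097 with an interval of −0.34 to 0.15. Limma adjusted p-values of the 3 genes ran from 0.625 to 0.885.

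Dad1, Ostc and Krtcap2, like Tmem258, encode small membrane subunits, and their means differed little. Dad1 (ENSMUSG00000022174), named as a defender against cell death, had means of 2469 ± 208 (SD, n = 8 APOE2 libraries) and 2527 ± 491 (SD, n = 5 APOE3 libraries) normalised counts. Ostc (ENSMUSG00000041084) had 2953 ± 380 and 2867 ± 231 (SD). Krtcap2 (ENSMUSG00000042747) had 2520 ± 346 and 2527 ± 536 (SD). The log2 differences were −0.016 for Dad1, 0.036 for Ostc and 0.0086 for Krtcap2, with limma adjusted p-values from 0.918 to 0.986. The 95% intervals were −0.25 to 0.22 for Dad1, −0.18 to 0.26 for Ostc and −0.26 to 0.27 for Krtcap2. They leave room for 0.84 to 1.16, 0.88 to 1.19 and 0.84 to 1.21 times the APOE3 level. The signs of these 3 differences depended on the scaling or on a correction for transcript length: with equal library totals Ostc was at −0.0044 and Krtcap2 at −0.032, and with length and GC trends removed Dad1 was at 0.026.

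Ost4 (ENSMUSG00000038803), the smallest subunit, varied most. In APOE2 replicates 1 to 8 it had 287, 276, 455, 299.9, 306, 120, 339 and 434 normalised counts, and in APOE3 replicates 1 to 5 it had 355, 111, 308, 154 and 282. The coefficient of variation was 32.9% in APOE2 and 43.2% in APOE3, against 5.79% from counting alone. Tmem258 had 11.8% and 6.84%, against 1.55%. The log2 difference of Ost4 was 0.42 with an interval of −0.17 to 1.00 (limma adjusted p = 0.524), which is an interval that holds both 0 and the log2 difference of Tmem258. It was 0.17 without APOE3 replicate 2 and −0.17 with the lung epithelium markers in the model. The annotation (GENCODE M21) places Ost4 inside exons of Agbl5 on the opposite strand over a span of 882 bases that reaches the 3′ end of Ost4, where the reads of this kit fall. Agbl5 itself averaged 37.4 normalised counts. The strand setting of the read counting is not given in the sources used here, and the part of this overlap in the spread of Ost4 was not tested.

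Overlaps touched other subunits away from their 3′ ends. Distances to the 3′ end of a gene, here and below, were measured along the genome with introns counted. Exons of Tmem258 and of Fen1, a flap endonuclease gene on the opposite strand, share a span of 156 bases that lies 3655 bases before the 3′ end of Tmem258 and 4882 bases before that of Fen1. Fen1 had 663 ± 90.4 normalised counts in the 8 APOE2 libraries and 506 ± 178 in the 5 APOE3 libraries (SD), a log2 difference of 0.46 (limma adjusted p = 0.252), and its groups overlapped. Krtcap2 overlaps Trim46 at 3597 bases and Rpn2 overlaps Mroh8 at 46796 bases from the 3′ end. Fads1, a desaturase gene within 50000 bases of Tmem258, had a log2 difference of −0.17 (limma adjusted p = 0.537) and Dagla, a lipase gene in the same window, had 0.017 (adjusted p = 0.988). Of the last 500 bases of each subunit transcript, only those of Ost4 matched another annotated gene at 95% identity or more over at least 100 bases. The matches were Agbl5 itself and Gm19774, which averaged 0.454 normalised counts.

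The median host difference was higher among the shortest transcripts than among the longest, and Tmem258 is short. Its annotated transcripts average 765 bases, beside 754 for Krtcap2 and 860 for Ost4. These 3 subunits fall in the shortest of 5 equal length bins (up to 1067 bases), whose median log2 difference was 0.060, against −0.036 in the longest. In the bins between, from short to long, the medians were 0.0083, −0.013 and −0.0014, so they did not fall steadily. Krtcap2, the shortest of the 3, had a log2 difference of 0.0086, and Ost4 had 0.42. After each library's trend on length and GC content was removed, the log2 difference of Tmem258 was 0.54, from 0.64. The part of length in the genotype difference was not tested.

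**Figure D4:**
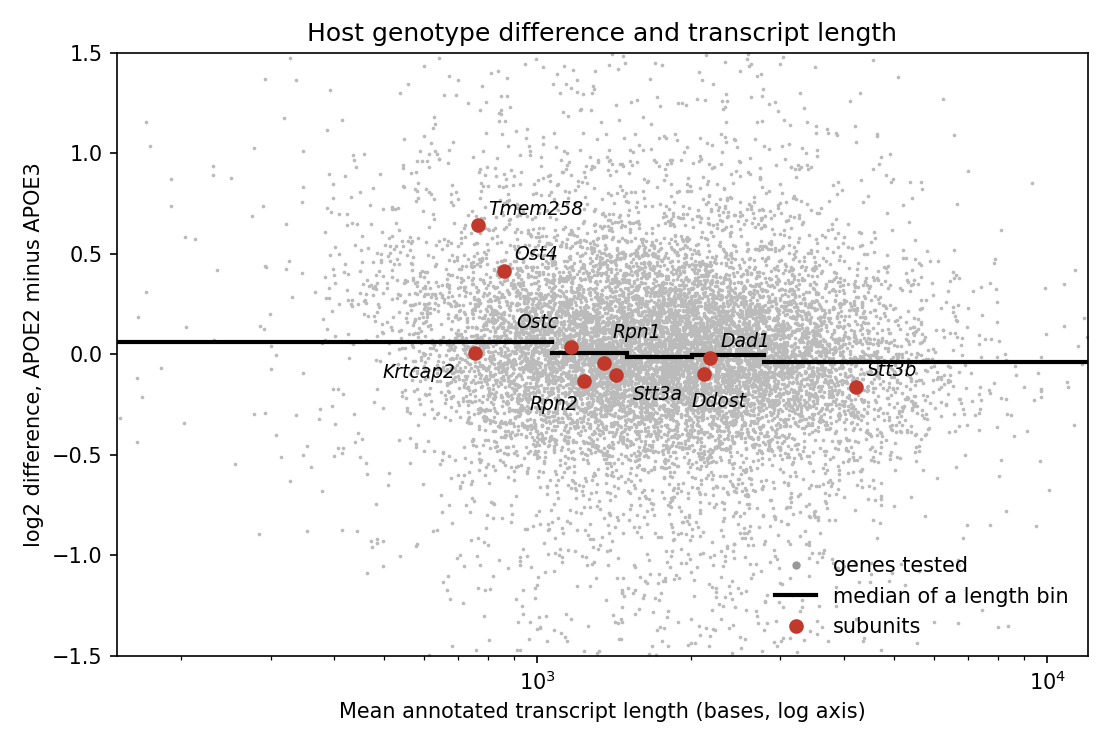
Log2 difference of APOE2 minus APOE3 against mean annotated transcript length (log axis), with the genes tested in grey, the median of each length bin as black lines and the 10 subunits in red. Tmem258 and Ost4 lie above the median of the shortest bin, 0.060, and Krtcap2 lies near 0, while 368 genes lie outside the plotted range of differences.

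The oxidoreductase subunits of the STT3B form were examined beside the 10. Magt1 (ENSMUSG00000031232) had 3089 to 4754 normalised counts with a median of 3545 in APOE2 and 3171 to 4340 with a median of 3495 in APOE3, with a log2 difference of −0.015 (limma adjusted p = 0.970). Tusc3 (ENSMUSG00000039530) had 382 to 794 with a median of 507, and 422, 294, 467, 414 and 494 in APOE3 replicates 1 to 5. Its log2 difference of 0.36 had an unadjusted p of 0.0362 and a limma adjusted p of 0.315, and 4 of 8 APOE2 libraries lay above all APOE3 libraries.

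Because the genotype difference chose Tmem258, variation within genotypes was used as a separate view of the complex. Log2 values were centred within each genotype and correlated over the 13 libraries for the 45 pairs of subunits. The median Pearson r was 0.089, with a range from −0.80 to 0.72, and 26 of 45 pairs were above 0. No pair passed Benjamini-Hochberg adjustment over the 45 by permutation of libraries within genotypes (100000 permutations): the smallest adjusted p was 0.174 for r and 0.0761 for Spearman's rho, while 5 pairs had an unadjusted p under 0.05 by each measure. The libraries that share a pair also share depth and processing.

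Tmem258 followed no other subunit closely. Its r with the other 9 ran from −0.35 for Stt3b to 0.43 for Rpn1, and 0 of these 9 pairs had an unadjusted p under 0.05. The 6 pairs with an unadjusted p under 0.05 by either measure lay elsewhere, and they joined Ost4, Dad1, Stt3a, Rpn2 and Ddost. Ost4 and Stt3a had r = 0.72 and rho = 0.81 (permutation p = 0.00718 and 0.00338, adjusted 0.174 and 0.0761), and r was 0.63 without the 2 libraries farthest from the median of Ost4. Ddost and Stt3a had r = −0.80 and rho = −0.75 (permutation p = 0.00772 and 0.0100, adjusted 0.174 and 0.113). Without APOE3 replicates 2 and 5 this r was −0.50, so part of the relation rested on those libraries. Dad1 and Stt3a had r = −0.66 and rho = −0.79 (permutation p = 0.0482 and 0.00528, adjusted 0.308 and 0.0792), with r = −0.72 without the 2 farthest libraries. Ost4 and Dad1 had the largest rho in size, −0.83, with r = −0.60 (permutation p = 0.00254 and 0.0490, adjusted 0.0761 and 0.308), and r was −0.70 without the 2 farthest. Dad1 and Rpn2 had r = 0.69 and rho = 0.62 (permutation p = 0.0475 and 0.0603, adjusted 0.308 and 0.436), and r was 0.46 without APOE3 replicate 4 and APOE2 replicate 2. Ost4 and Rpn2 had r = −0.57 and rho = −0.68 (permutation p = 0.0685 and 0.0258, adjusted 0.308 and 0.232), and r was −0.61 without the 2 farthest.

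**Figure D5:**
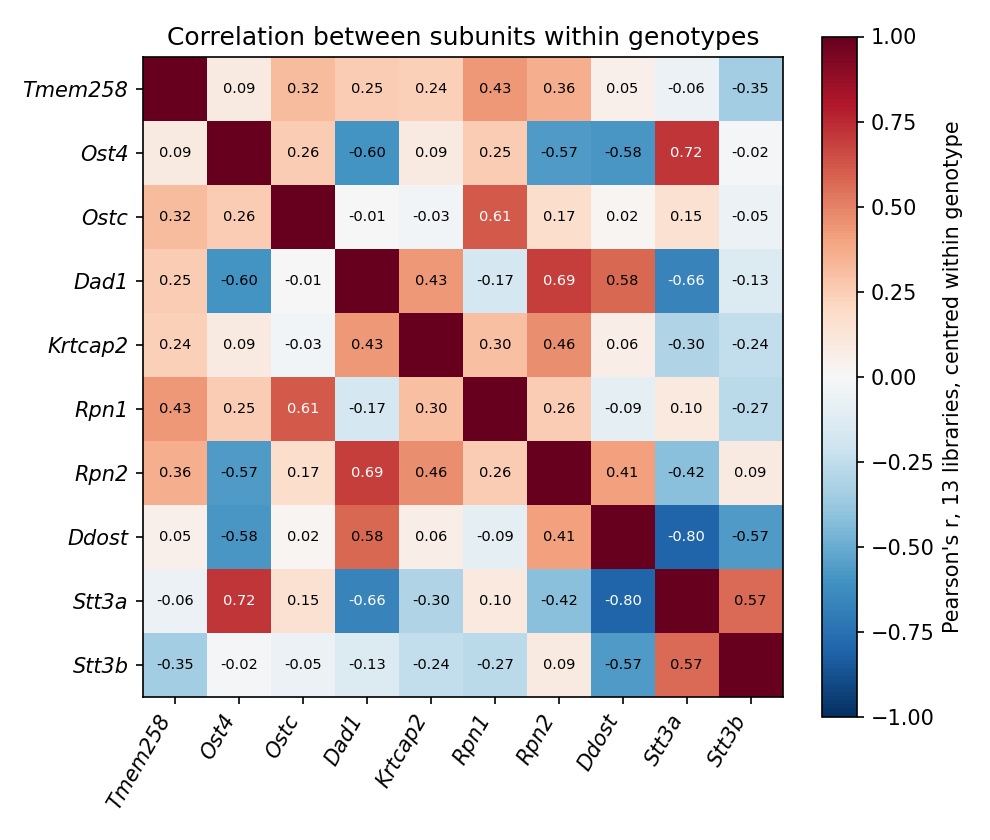
Pearson's r between subunits over 13 libraries after log2 values were centred within genotype, from blue (−1) to red (1). Stt3a is red with Ost4 (0.72) and blue with Ddost (−0.80) and Dad1 (−0.66), Dad1 is red with Rpn2 (0.69), and the row of Tmem258 stays between −0.35 and 0.43.

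Among the other 12402 genes tested, the 5 whose centred values were most like those of Tmem258 over the 13 libraries were picked by Pearson r, so their r is a description only. They were Fau, a fusion of a ubiquitin-like protein and a ribosomal protein (r = 0.89), the nuclear factor gene Cebpz (0.88), the ribosomal protein gene Rps21 (0.88), Iqcg (0.85) and the mitochondrial gene Romo1 (0.85). Without APOE2 replicates 1 and 5, where Tmem258 lay farthest from its median, r was 0.65 to 0.72. Their log2 differences between hosts were 0.28 for Fau, 0.36 for Cebpz, 0.64 for Rps21, −0.17 for Iqcg and 0.53 for Romo1. Of the 5, Rps21 passed the test by limma, as did 0.79% of all genes tested. It averaged 38725 ± 9237 normalised counts over the 8 APOE2 libraries and 24476 ± 3853 over the 5 APOE3 libraries (SD; limma adjusted p = 0.0456). The call held in 4 of 13 fits when single libraries were omitted, and was lost without APOE2 replicate 1, 2, 5, 7 or 8 or APOE3 replicate 2, 3, 4 or 5, with adjusted p-values up to 0.144. It was also lost with a pseudocount of 0.5 (0.0501), equal totals (0.0607), length and GC trends removed (0.0890), no variance trend (0.186), no filter on low values (0.192) and the lung epithelium markers in the model (0.489). Rps21 transcripts average 424.5 bases. Iqcg and Cebpz overlap Lrch3 and Cebpzos on the opposite strand at or within 50 bases of their 3′ ends, and Fau, Rps21 and Romo1 have near copies (Gm9843, Gm19810 and Gm12497, at 62.5, 19.8 and 0.396 normalised counts), so the counts of these genes are uncertain to that extent.

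The steps before and after the transferase were compared through lists of genes. In 5 lists, 80 of 81 genes in the table were tested, and 1 rose and 0 fell by limma, against 0.411% and 0.379% of all genes. At an unadjusted p under 0.05, 10 of the 80 were higher and 0 lower, against 7.51% higher and 6.71% lower of all genes tested. The median log2 difference of the 80 genes was 0.035. All 32 genes that assemble the dolichol-linked sugar tree were tested, and 1 rose. It was Dpm3 (ENSMUSG00000042737), which anchors dolichol-phosphate-mannose synthase, the enzyme that makes a mannose donor of the pathway. Dpm3 averaged 2009 ± 249 normalised counts over 8 APOE2 libraries and 1377 ± 289 over 5 APOE3 libraries (SD). Its lowest APOE2 value lay above its highest APOE3 value of 1766, a pattern that 0.476% of all genes tested had. Its log2 difference was 0.56 ± 0.13 (SE, limma adjusted p = 0.0327). The call was lost without APOE2 replicate 1, 2, 5 or 8 or APOE3 replicate 3 or 5, with adjusted p-values up to 0.120, with length and GC trends removed (0.0527), without the filter on low values (0.0964), without the variance trend (0.164) and with the lung epithelium markers in the model (0.489). Dpm3 transcripts average 557 bases. Srd5a3, the polyprenol reductase of dolichol synthesis, had a log2 difference of 0.43 (adjusted p = 0.261).

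In the list of signal recognition and translocon genes, 20 were tested and 0 passed, while 6 were higher and 0 lower at an unadjusted p under 0.05, where 7.51% and 6.71% of all genes lay. Sec62, a subunit of the channel for late-arriving proteins, had 3225 ± 569 normalised counts (SD, n = 8) and 2326 ± 243 (SD, n = 5), a log2 difference of 0.46 (limma adjusted p = 0.0669). Sec61b, a subunit of the channel itself, had 2183 ± 415 and 1463 ± 432 (SD), a log2 difference of 0.62 (adjusted p = 0.0823). In both genes 7 of 8 APOE2 libraries lay above all APOE3 libraries. Both passed with DESeq2 (adjusted p = 0.0110 and 0.0353), by which 2.51% of all genes passed. Neither passed with edgeR (0.0613 and 0.0996), without the variance trend (0.202 and 0.246), or with lung epithelium markers in the model (0.592 and 0.703). With 1 library left out at a time, Sec62 passed by limma in 2 of the fits and Sec61b in 1. Sec62 overlaps an antisense gene 27880 bases before its 3′ end, and Sec61b has near copies in the annotation, of which Gm10320 had the highest mean, 3.0 normalised counts.

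Of the 21 genes of glycan trimming and the lectin chaperones, 0 passed and 0 had an unadjusted p under 0.05. By limma, 0.79% of all genes tested passed and 14.2% had an unadjusted p under 0.05. Prkcsh, the regulatory subunit of glucosidase II, had a log2 difference of −0.28 (limma adjusted p = 0.360), and Canx, the membrane lectin calnexin, had −0.19 (adjusted p = 0.395). Of the 5 signal peptidase genes, 0 passed and 1, Sec11c, was higher at an unadjusted p under 0.05 (0.0467 by limma). Sec11c, a catalytic subunit, had a log2 difference of 0.31 (adjusted p = 0.344), and Spcs1, an accessory subunit that overlaps Glt8d1 on the opposite strand 1574 bases before its 3′ end, had 0.27 (adjusted p = 0.378).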

How the data were processed

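QuantSeq libraries of 13 sorted tumour samples were analysed from 1 table that the authors deposited. Its values are a signal per gene, namely normalised counts, per the file headers. The submitters' processing notes name STAR 2.6.0, featureCounts, DESeq2 1.28.1 and the build mm10, without roles. All nonzero values (100%) were whole multiples of 1 step per library within 0.001 reads, so whole reads were recovered. GENCODE M21 (GRCm38) paired 22649 of 22656 identifiers with symbols. Values were tested as log2(value + pseudocount 1), which understates changes of low genes, for 12403 genes with a mean of at least 10, with limma 3.58.1 in R 4.3.3 (intensity trend, two-sided, Benjamini-Hochberg, threshold 0.05). All 10 subunits passed that filter. On simulated data of 12403 genes, this fit recovered 77% of changes of 1 and 11% of changes of 0.5 on the log2 scale. The simulation gave every gene the same dispersion, so these shares are not the power for the subunits. Among the subunits the limma SE of the log2 difference ran from 0.10 for Rpn1 to 0.28 for Ost4. Alternatives included edgeR 4.0.16, which called 138 genes, and DESeq2 1.42.0 on recovered reads. Near copies were searched with BLAST.

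The subunits, lists and tests were chosen with earlier results of these data known. Named genes were the 10 subunits, Magt1 and Tusc3, in each other list the genes past the threshold (at most 4 per direction) or, where fewer than 2 passed, the 2 with the smallest p, and the 5 genes most like Tmem258. Fen1, Fads1, Dagla and other overlapping or neighbouring genes were named by position after the data were seen. The series' design text counts 8 APOE2 and 5 APOE3 mice, and reads were not marked with molecular identifiers, so read totals cover counting error only. Libraries within a group differed by far more than counting noise (chi-square per degree of freedom of at least 12.4), so none was a resequenced copy of another. This check cannot tell whether separate libraries came from the same mouse.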

Additional observations from a re-analysis of the deposited data

Results flagged for a closer look

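Among the 10 subunits, Magt1 and Tusc3, the highest and lowest library of each genotype were compared with their neighbours by Dixon's criterion. Of 24 such comparisons 1 value stood apart, where chance gives about 1.2. It was Magt1 in APOE2 replicate 3, at 4754 normalised counts, with the next library at 3737.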

How the results depend on the processing

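Over the 13 settings other than leaving out a library, 0 of the 9 subunits other than Tmem258 passed, as in each of the 13 fits without 1 library. The log2 difference of Tmem258 ran from 0.54 (length and GC trends removed) to 0.72 (replicate block) in them. That it stayed above 0 follows largely from how Tmem258 was chosen, and nothing is read from it. The number of genes called was less stable than that of the subunits. It was 9 without a filter on low values, 43 with the replicate block, 64 with length and GC trends removed, 311 with DESeq2, and 0 both for limma without the variance trend and with the lung epithelium markers as a covariate, where 1599 and 841 genes had an unadjusted p under 0.05. Without 1 library it ranged from 9 (APOE3 replicate 3) to 228 (APOE3 replicate 1). Equal totals gave 38 higher and 54 lower genes, against 51 and 47 as deposited. Of the 80 pathway genes, 3 passed with DESeq2 and 0 without the filter, with the block, without the trend, with the covariate, or with length and GC trends removed, and 0 to 4 without 1 library. With the replicate block the adjusted p was 0.113 for Dpm3 and 0.127 for Rps21. The cause of these shifts was not tested. Because the lung epithelium markers were lower in APOE2 hosts, the fit with that covariate cannot fully separate host from lung cell RNA. Some differences changed sign. With equal totals Ostc was at −0.0044 and Krtcap2 at −0.032. With the replicate block Dad1 was at 0.022, Rpn1 at 0.022 and Iqcg at 0.086. With DESeq2 Krtcap2 was at −0.0028. With length and GC trends removed Ostc was at −0.037, Dad1 at 0.026, Krtcap2 at −0.059, Rpn1 at 0.0092 and Ddost at 0.00029. With the covariate Ost4 was at −0.17, Ostc at −0.10, Dad1 at 0.076, Rpn2 at 0.011 and Ddost at 0.022. Without 1 library the ranges were −0.065 to 0.11 for Krtcap2, −0.095 to 0.070 for Dad1, −0.17 to 0.0013 for Ddost, −0.075 to 0.054 for Magt1 and −0.38 to 0.052 for Iqcg, and −0.56 to 1.98 percentage points for the Stt3a share. The median r between subunits was 0.018 to 0.15. Same-numbered libraries of the 2 hosts did not deviate together (r from −0.048 to 0.052 over 2000 genes, 1 of 5 best with its own number). The values thus gave no sign of pairing by number, but whether the mice were matched cannot be seen from them. APOE2 replicates 6 to 8 have no partner in the block.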
